A study of Homo sapiens with 4 samples.

Results

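Binding of wild-type (WT) p53 was compared between Tet-treated and untreated H1299 cells through the 2 lists of ChIP-seq peaks that the authors called, 4326 peaks with Tet and 488 without. These 4814 peaks are part of 6849 in the whole series. Each Tet peak was classed as shared, and called already bound, when it overlapped an untreated peak by at least 1 bp, and as Tet-only when it overlapped none. An untreated peak that overlapped no Tet peak was classed as untreated-only. By this rule 401 of the 4326 Tet peaks were shared, or 9.27% (95% interval 8.42 to 10.2), and 3925 were Tet-only. Read from the other side, 414 of the 488 untreated peaks overlapped a Tet peak, or 84.8% (81.3 to 87.9), and 74 were untreated-only. The shared peaks included the strongest sites of the Tet list and canonical targets such as CDKN1A, BBC3, MDM2 and RRM2B, while the strongest untreated-only peaks lay at GC-rich gene starts with no good match to the p53 consensus.

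H1299 is a human lung cancer cell line that lacks p53 of its own. The cells stably expressed the Tet Repressor and carried WT p53 in a lentiviral vector that tetracycline switches on. The Tet-treated group received tetracycline for 24 h, at a dose of 1 that the methods give in µg per ml and the sample labels in µg per µl, and the untreated group received none. Both were precipitated with the anti-p53 antibody FL393-x and sequenced once, so each condition was 1 library, with 33531162 ChIP tags for Tet-treated and 33059650 for untreated cells. The same design with K120R p53, in which arginine replaces a lysine of the DNA-binding domain, gave 2023 peaks with Tet and 12 without, and is used only as a further readout. The label "WT p53" could not be checked against marker genes, since ChIP-seq peaks hold no expression values.

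p53 is a transcription factor that binds DNA as a tetramer and activates genes that halt the cell cycle, repair DNA or start apoptosis. Its response element consists of a pair of decamers, each with a central CWWG core, where W is A or T, flanked by purines on the left and pyrimidines on the right. The consensus that the paper gives allows further bases between the decamers. In most cells p53 is kept scarce by the ubiquitin ligase MDM2, itself a p53 target, whereas in this line the inserted gene is the source of p53.

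The response elements below were read from GRCh37 on the plus strand as the best 20-bp match to the p53 consensus within 100 bp of a summit, the point of highest pileup in a peak. They are shown because the classes differed in how close such matches came to the consensus. The search took the decamers as adjacent, so an element with bases between them can count as a poor match. Capitals mark positions 4 to 7 and 14 to 17, the 4-base core of each decamer. Shared peaks are represented by CDKN1A (chr6:36644226-36644245), PLK2 (chr5:57758101-57758120), ZMAT3 (chr3:178787976-178787995), GADD45A (chr1:68152458-68152477), DDB2 (chr11:47236520-47236539), MDM2 (chr12:69202703-69202722) and NEAT1 (chr11:65188791-65188810). Their best matches had 2, 0, 0, 1, 1, 2 and 1 mismatches, in that order. At DDB2 and MDM2 1 of the cores departed from CWWG.
CDKN1A: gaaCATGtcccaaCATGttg
PLK2: gggCAAGtccaggCATGttt
ZMAT3: aggCATGtctggaCTTGttt
GADD45A: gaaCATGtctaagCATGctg
DDB2: aagCTGGtttgaaCAAGccc
MDM2: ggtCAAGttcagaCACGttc
NEAT1: gagCAAGcctgggCTTGcca

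Tet-only peaks are represented by MIR34B (chr11:111381266-111381285), MDM4 (chr1:204494174-204494193), E2F7 (chr12:77459857-77459876) and PPM1D (chr17:58677612-58677631), with 2, 2, 2 and 3 mismatches. Their cores were intact in the first 2 and altered in 1 decamer of the last 2.
MIR34B: aggCATGcctagaCATGaac
MDM4: agaCATGttccaaCATGttg
E2F7: agaCTTGccggggCAAActt
PPM1D: ggaCAAGtccagaCATCgcg

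Untreated-only peaks are represented by GPR137 (chr11:64053193-64053212), STRBP (chr9:126031114-126031133) and DICER1 (chr14:95623923-95623942). Here the best match within reach of the summit had 6, 6 and 5 mismatches, and neither core followed CWWG.
GPR137: ggcGCAGctcgcgCCAAttc
STRBP: gcaCCTGccagcgGACGctt
DICER1: gagCGAGcctgtgATTGgac

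Strength was read as fold enrichment, the ratio of the pileup at the summit to the local background that the authors' peak caller estimated from the input. The fragment length set by the peak caller, MACS, was 170 bp in the Tet library and 64 bp in the untreated library, so values were compared within a list and, between lists, the presence of a peak. The exceptions are the correlations and percentile positions of shared pairs, given below as descriptions. Within the Tet list the already bound peaks were the stronger ones. Their median fold enrichment was 25.7 (quartiles 17.5 to 38.9), against 7.11 (5.26 to 10.8) for Tet-only peaks, a ratio of 3.61. They were also longer, with a median of 563 bp against 290 bp. The fragment length differed together with the treatment, and its part in the number of peaks cannot be told apart from that of Tet. A missing peak means that none was called, not that p53 was absent.

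The already bound share rose steeply toward the upper ranks of the Tet list. Split into 10 groups of equal size by fold enrichment, the lowest 5 groups held 0.693%, 0.231%, 0.463%, 0.462% and 0.926% already bound peaks. The next 4 groups held 1.85%, 2.54%, 6.71% and 18%. In the strongest group, with fold enrichments from 20.9 to 90.7, 263 of 432 peaks were already bound, or 60.9% (56.1 to 65.5). Every one of the 50 strongest Tet peaks was called in untreated cells, as were 95 of the 100 strongest, and the first Tet-only peak stood at rank 75. All intervals here are exact Clopper-Pearson 95% intervals that cover counting error only, and with 1 library per condition no test between conditions was made.

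**Figure D1:**
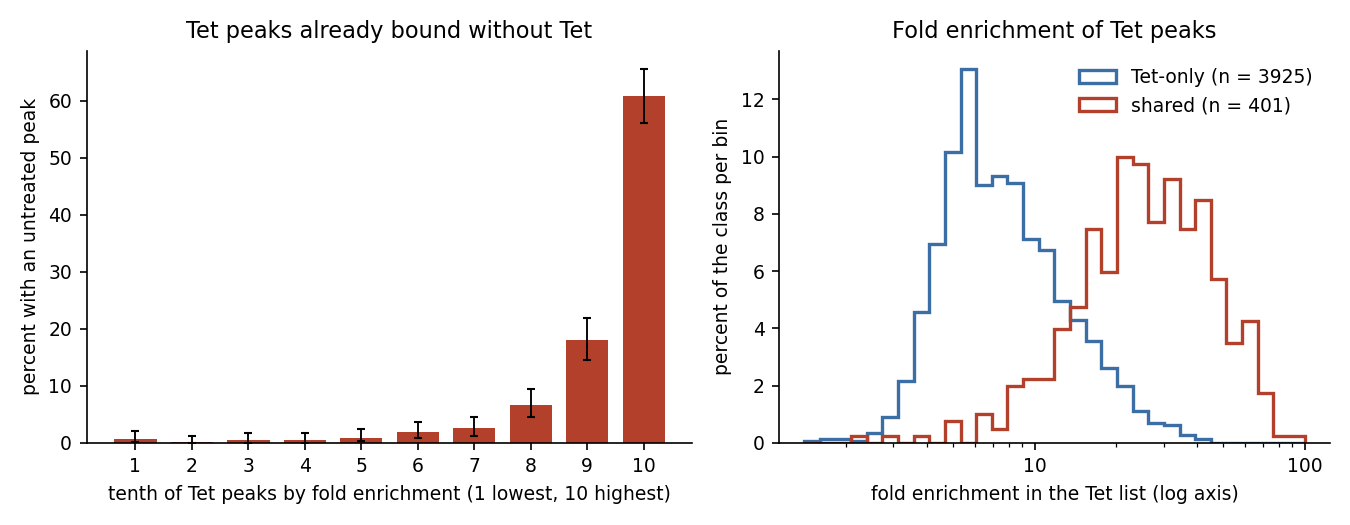
Left, the percent of Tet peaks that overlapped an untreated peak in each of 10 groups of rising fold enrichment (bars; whiskers are exact 95% intervals), which reached 60.9% in the strongest group. Right, the distribution of fold enrichment in the Tet list (log axis) for 401 shared and 3925 Tet-only peaks, with medians of 25.7 and 7.11.

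Overlapping peaks marked the same positions closely. The summits of the 414 overlapping pairs lay a median of 27 bp apart, and 391 of the 414 untreated peaks lay wholly inside the Tet peak. Of the 401 shared Tet peaks, 391 held 1 untreated peak, 8 held 2, 1 held 3 and 1 held 4. At the edge of the rule, the smallest overlap was 41 bp at STK11, a tumour suppressor kinase, where it covered 64.1% of the untreated peak. The nearest peaks outside the rule were 272 bp apart for Tet-only and 1132 bp apart for untreated-only peaks.

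The 6 shared peaks with the largest Tet fold enrichment lay outside the reach of 5 kb used for listed target genes below. The first lay in an intron of the pseudogene LRRC37A11P (chr17:37202776-37203575), with a Tet fold enrichment of 90.7, a perfect match to the consensus, and rank 24 of 488 in untreated cells. The second lay in an intron of PHF14, a PHD-finger protein (chr7:11122181-11122942), at 77.0, with rank 88 in untreated cells. The third lay 15710 bp downstream of the start of IFNAR1, a type I interferon receptor subunit (chr21:34739261-34740068), at 76.0, with rank 25 in untreated cells. CAMK4, a calcium- and calmodulin-dependent kinase, carried the next (chr5:110830109-110831019) at 74.1, and this site had rank 11 in untreated cells. Equal to it at 74.1 was a peak (chr7:121151018-121151840) 116 bp from the start of an unnamed transcript and 114946 bp from the nearest protein-coding start, that of FAM3C, with rank 86 in untreated cells. The sixth lay 8414 bp upstream of IRF2BP2, a transcriptional corepressor that is among the listed targets and counted as bound only with a reach of 10 kb (chr1:234754072-234754777), at 73.5 and rank 16 in untreated cells. All 6 also overlapped a peak of Tet-treated K120R cells.

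The strongest untreated peaks were chosen for description after their values were seen. The first, with an untreated fold enrichment of 61.3, lay 42914 bp upstream of TGFA, a ligand of the EGF receptor (chr2:70823649-70824650), and its Tet peak had rank 64 of 4326. The next lay 46452 bp downstream of the start of IER5, an immediate early response gene (chr1:181103949-181104643), at 49.9, and its Tet peak had rank 32. Both held a perfect match to the consensus. The peaks of rank 3 and 4, both at 46.9, lay 9880 bp downstream of the start of DHX37, an RNA helicase, and in an intron of APBB2, and their Tet peaks had ranks 13 and 93. At rank 5, a peak 1430 bp upstream of the nearest start of GAS6, a ligand of the TAM receptor kinases (chr13:114539873-114540861), reached 43.2 in untreated cells and rank 69 with Tet. Of the 50 strongest untreated peaks, 45 were shared and 21 overlapped one of the 50 strongest Tet peaks. Of the 100 strongest, 91 were shared and 49 overlapped one of the 100 strongest Tet peaks.

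Ranks of the shared sites ran broadly together in the lists. Over the 414 pairs, Spearman's rho of fold enrichment was 0.560, a description over sites that are not replicates and that share their libraries. It was 0.769 for pileup, the height of the fragment stack at the summit after the scaling by the authors. When the pairs were split in 4 groups by untreated rank, the weakest group had a median Tet rank of 648. The median Tet rank was 401 and 244 in the middle groups and 93 in the strongest. Among untreated peaks, overlap with a Tet peak was less frequent only at the weak end. It held for 79 of the 122 weakest peaks, or 64.8% (55.6 to 73.2), and for 113, 110 and 112 of 122 in the 3 stronger groups.

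**Figure D2:**
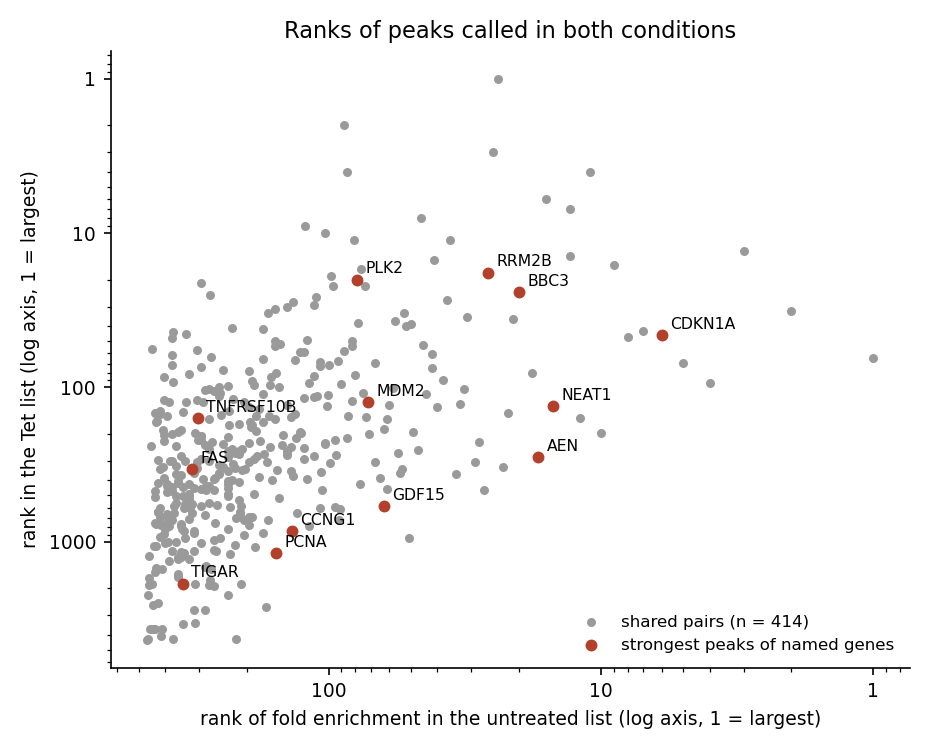
Rank of fold enrichment in the untreated list against rank in the Tet list (both log axes, 1 is the largest) for 414 overlapping pairs of peaks (grey), with the strongest peaks of 13 listed target genes in red. The lists hold 488 and 4326 peaks, so equal ranks are not equal percentiles. CDKN1A, BBC3 and RRM2B lie toward the upper right.

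Percentile ranks of the pairs were mostly higher in the Tet list, in 388 of 414 cases. Shared peaks fill the top of the longer list. The median percentiles, 93.5 with Tet against 53.2 without, are positions in lists of unlike size, and a change in binding was not tested. The pairs farthest from each other in percentile are given as positions in each list. A peak in STXBP5-AS1, an antisense transcript (chr6:147365295-147365789), held rank 56 of 4326 with Tet and rank 447 of 488 without. The pair 4953 bp upstream of a start of WFS1, an endoplasmic reticulum membrane protein (chr4:6266275-6266864), held ranks 240 and 452. HERC5, the ligase for the ubiquitin-like modifier ISG15, had a pair 1624 bp upstream of its start (chr4:89376398-89376968) with ranks 146 and 436. ANKRD18B (chr9:33560215-33560791) had ranks 168 and 430. Each of these 4 sites had 1 mismatch to the consensus. The percentile of each was at least 84.2 points higher in the Tet list, where the median over all pairs was 33.4 points. Their untreated peaks were among the least significant called, with -log10 q of 1.45 to 1.63 in a list whose lowest value was 1.36. The untreated pileups of these 4 peaks were 7 to 14, against a median of 16 for shared untreated peaks.

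The 26 other pairs had a higher percentile in the untreated list. Of the 4 largest such shifts, 1 lay 19 bp from the start of TYMS, thymidylate synthase (chr18:658053-658410), with rank 2644 of 4326 with Tet and rank 171 of 488 without. An intronic pair whose nearest protein-coding start was that of NTRK2, a neurotrophin receptor, 155652 bp away (chr9:87127515-87127799), had ranks 3371 and 310 and a perfect match to the consensus. The other 2 of these 4 pairs shared 1 Tet peak, in a stretch that is described among the other observations.

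Target genes were read through 10 lists of known p53 targets with 103 names, of which 102 matched the annotation. A gene had a peak when a summit lay in its body or up to 5 kb upstream. Bound, and bound only with Tet, refer to called peaks, and weaker binding without Tet may have gone uncalled. With Tet, 60 of the 102 genes (58.8%) had a peak, against 11.2% of all 20163 protein-coding genes. Without Tet, 29 of the 102 (28.4%) had one, against 1.37% of protein-coding genes. Both conditions had a peak at 28 genes, which is 46.7% of the 60 genes bound with Tet. Among all protein-coding genes, 241 of the 2251 bound with Tet, or 10.7%, also had an untreated peak. The lists are short and were drawn up from known targets, with earlier results of these data known, so these shares describe them and were not tested. The 102 genes include 7 of the non-coding RNA list, whereas the comparison set holds protein-coding genes only. Ranks given for their genes are out of 4326 with Tet and out of 488 without, and place a peak only within its own list.

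Listed genes that were already bound had the stronger Tet peaks. The strongest Tet peak of the 28 genes bound in both conditions had a median fold enrichment of 29.2 (quartiles 20.7 to 41.1), against 9.75 (6.43 to 14) for the 32 genes bound only with Tet. The ranges overlapped, from 8.54 to 62.2 and from 3.60 to 43. The best match at this strongest peak had at most 3 mismatches at 22 of the 28 genes and at 22 of the 32. A peak of Tet-treated K120R cells overlapped this strongest peak at 24 of the 28 genes and at 10 of the 32. Over all peaks these shares were 63.1% of shared and 21.4% of Tet-only peaks. In both sets most strongest peaks lay within 1 kb of a transcription start site (TSS), 19 of 28 and 24 of 32, against 19.5% and 11.9% over all peaks of these classes. The gene rule favours summits near starts, so nothing is read from this difference.

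**Figure D3:**
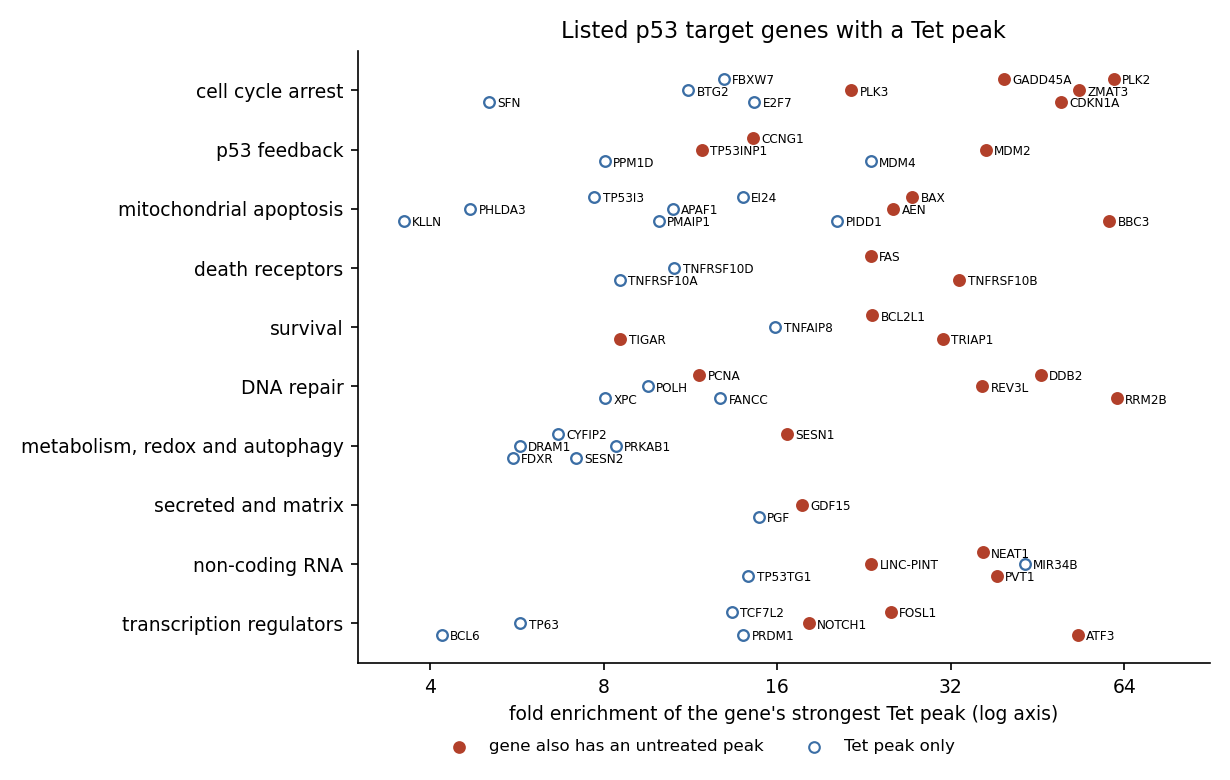
Fold enrichment of the strongest Tet peak (log axis) of 59 of the 60 listed target genes that had one, by list. Filled points are the 28 genes that also had an untreated peak, and open points are 31 that had none. Filled points lie mostly at the right, from 8.54 to 62.2.

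Genes of cell cycle arrest were mostly bound. Of 11 genes, 9 had a Tet peak and 5 of these also an untreated peak. CDKN1A, the cyclin-dependent kinase inhibitor that enforces arrest, had rank 46 with Tet and rank 6 without. PLK2, a polo-like kinase, had rank 20 with Tet (fold enrichment 61.4) and rank 79 without. ZMAT3, an RNA-binding zinc finger protein, had ranks 36 and 21, and GADD45A, a growth arrest and DNA damage protein, ranks 102 and 32. PLK3, another polo-like kinase, had ranks 394 and 120, although the best match at its Tet summit had 4 mismatches. The response elements of CDKN1A, PLK2, ZMAT3 and GADD45A printed above had at most 2 mismatches. The 4 genes bound only with Tet were weaker. E2F7, a repressor of E2F target genes, reached a fold enrichment of 14.6, the ubiquitin ligase adaptor FBXW7 12.9, the antiproliferative gene BTG2 11.2, and SFN, the gene of a 14-3-3 protein, 5.06.

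Among 9 genes of p53 feedback, 5 had a Tet peak and 3 of these an untreated peak. MDM2, the ubiquitin ligase that degrades p53, was bound at its internal promoter, 56 bp from the nearest TSS, with rank 124 with Tet and rank 72 without. CCNG1, or cyclin G, had ranks 849 and 137, and TP53INP1, a p53-induced nuclear protein, ranks 1156 and 349. MDM4, the MDM2 relative that inhibits p53, was bound only with Tet, at a fold enrichment of 23.2, and so was PPM1D, a phosphatase that opposes the damage response, at 8.03.

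The genes of mitochondrial apoptosis were split. Of 19 genes, 10 had a Tet peak and 3 of these an untreated peak. BBC3, the BH3-only protein PUMA, had rank 24 with Tet (60.2) and rank 20 without. AEN, an apoptosis-enhancing nuclease, had rank 284 with Tet and rank 17 without, or percentiles 93.4 and 96.6 of the respective list. BAX, which permeabilizes the outer mitochondrial membrane, had ranks 244 and 164. The Tet-only genes were led by PIDD1, a death-domain protein, at 20.4. EI24 followed at 14, APAF1, the scaffold of the apoptosome, at 10.5, and PMAIP1, the BH3-only protein NOXA, at 9.97. The other 3, TP53I3, PHLDA3 and KLLN, ranged from 3.60 to 7.71, and 9 genes of the list had no peak in either condition.

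Of 5 death receptor genes, 4 had a Tet peak. FAS, the receptor of the FAS ligand, had rank 339 with Tet and rank 319 without, 9 bp from a TSS. TNFRSF10B, the TRAIL receptor DR5, had ranks 158 and 303. Its relatives TNFRSF10D, a decoy receptor, and TNFRSF10A, a signalling receptor, had Tet peaks at 10.6 and 8.53 and none without Tet.

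The survival list of 7 genes had 4 with a Tet peak and 3 with both. TRIAP1, an inhibitor of apoptosis, was the strongest, with rank 191 with Tet and rank 185 without. BCL2L1, the gene of the antiapoptotic protein BCL-XL, had an intronic peak with ranks 335 and 418. TIGAR, a regulator of glycolysis, had rank 1866 with Tet and rank 344 without. TNFAIP8 was bound only with Tet, at 15.9.

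DNA repair genes were bound nearly throughout, with 7 of 8 having a Tet peak and 4 of these an untreated peak. RRM2B, the p53-inducible ribonucleotide reductase subunit, had the largest Tet fold enrichment of all listed genes, 62.2 at rank 18, and rank 26 without Tet. DDB2, which recognizes ultraviolet lesions, had ranks 61 and 42, 2 bp from a TSS. REV3L, the catalytic subunit of polymerase zeta, had ranks 133 and 40. PCNA, the sliding clamp of replication, had ranks 1186 and 156. Bound only with Tet were FANCC, of the Fanconi anaemia pathway, at 12.7, the translesion polymerase POLH at 9.53 and XPC, a sensor of helix distortion, at 8.05.

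Each of the lists of metabolism and secretion held 1 already bound gene. Of 14 genes of metabolism, redox control and autophagy, 6 had a Tet peak and only SESN1, a sestrin, was already bound, with rank 653 with Tet and rank 131 without. The others with a Tet peak were PRKAB1, a subunit of AMP-activated kinase, at 8.40, SESN2 at 7.17, CYFIP2 at 6.66, the autophagy regulator DRAM1 at 5.72 and, weaker, the mitochondrial reductase FDXR. Of 12 secreted and matrix genes, 3 had a Tet peak and only GDF15, a stress-induced cytokine, was already bound. Of the 2 Tet peaks at GDF15, only that of rank 588 was shared, and it covered 2 untreated peaks, the stronger of rank 63. PGF, a growth factor of the VEGF family, reached 14.9 with Tet only.

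Of 7 matched non-coding RNA genes, 5 had a Tet peak and 3 also an untreated peak. NEAT1, the scaffold of paraspeckles, had ranks 132 and 15. PVT1, a neighbour of MYC, had ranks 114 and 111, 11 bp from a TSS, and LINC-PINT had ranks 338 and 309. MIR34B, a microRNA gene whose products restrain proliferation, was bound only with Tet. TP53TG1 had a Tet peak of 14.3 and none without Tet. MIR34A had no peak by the rule because its promoter lies farther away. A pair chosen after its values were seen lay 5 bp from the start of LNCTAM34A, an antisense transcript at that promoter (chr1:9241783-9242751), with rank 43 with Tet and rank 7 without.

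Of 10 transcription regulators, 7 had a Tet peak and 3 also an untreated peak. ATF3, a stress-induced bZIP factor, had rank 37 with Tet and rank 57 without, in an intron, with 5 mismatches at the Tet summit. FOSL1, an AP-1 subunit, had ranks 290 and 295. A pair 4543 bp upstream of NOTCH1, a receptor whose intracellular domain regulates transcription, had ranks 565 and 319. Bound only with Tet were PRDM1, a transcriptional repressor, at 14, TCF7L2, an effector of WNT signalling, at 13.4, the p53 relative TP63 at 5.74 and the repressor BCL6 at 4.19.

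The 6 strongest Tet-only peaks stood at ranks 75 to 105 of the Tet list. The first was the MIR34B peak (chr11:111380987-111381548), 49 bp upstream of the host transcript MIR34BHG and in an intron of BTG4, with a fold enrichment of 43. It was also the only one of the 6 without a peak in Tet-treated K120R cells. ALOX5, arachidonate 5-lipoxygenase, followed at 42.6 with an intronic peak (chr10:45933706-45934357). MYO16, an unconventional myosin, had an intronic peak at 41.7 (chr13:109406283-109406813). A peak 9891 bp upstream of METRNL, a secreted protein (chr17:81027377-81027822), and an intronic peak of TJP1, a tight junction scaffold (chr15:30038375-30038955), both reached 41.4. The last, intergenic and 21182 bp upstream of CEACAM21 (chr19:42034345-42035080), reached 39.2. The nearest untreated peak to any of the 6 was 329086 bp away.

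Untreated-only peaks differed from both other classes in kind. Within the untreated list they were the weaker class, with a median fold enrichment of 4.64 (quartiles 2.31 to 8.69) against 7.63 (5.86 to 11.2) for the 414 shared peaks. Their median pileup was nevertheless higher, 37.5 against 16, and their median GC content was 59.7% against 47.8%. Of the 74 peaks, 32 (43.2%, interval 31.8 to 55.3) combined a pileup of at least 50 with a fold enrichment below 5, against 6 of the 414 shared peaks. A low ratio at a high pileup means that the input was also high there.

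Gene starts were most frequent among the stronger peaks of the class. Below 5-fold enrichment, 15 of 41 peaks (36.6%, interval 22.1 to 53.1) lay within 1 kb of a TSS, but only 3 of 41 (7.32%) within 1 kb of a protein-coding one, against 24 of 33 (72.7%) of the stronger peaks. Of the 33 untreated-only peaks at 5-fold enrichment or more, 29 were within 1 kb of a TSS, or 87.9% (71.8 to 96.6), their median GC content was 69.2%, and none had a match with at most 3 mismatches. All 12 with a fold enrichment of at least 10 lay within 240 bp of the start of a protein-coding gene, and none overlapped a peak of Tet-treated K120R cells. The first was at GPR137, a membrane protein of the lysosome (chr11:64053019-64053428), 13 bp from its start, with a fold enrichment of 27.2 and rank 19 of 488. STRBP, a spermatid RNA-binding protein (chr9:126030887-126031379), followed at 20.7 and the zinc transporter gene SLC39A10 (chr2:196521548-196522082) at 19.7. DAGLA, diacylglycerol lipase alpha (chr11:61447682-61448015), had 18.8. DICER1, the nuclease that matures microRNAs (chr14:95623680-95624034), had 17 and NUDT3, a diphosphoinositol phosphatase (chr6:34360286-34360670), 15.0. The other 6, chosen after their values were seen, were at MAP3K1, EPC2, HNRNPA2B1, GABARAP, ATG16L2 and XPO7, from 10.1 to 14.4.

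**Figure D4:**
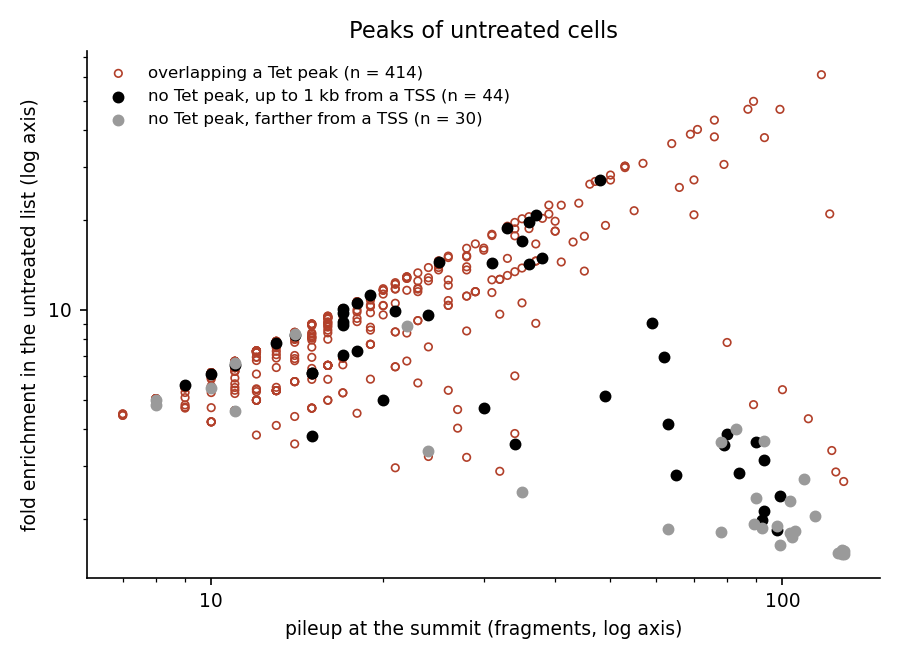
Pileup at the summit against fold enrichment (both log axes) for the 488 peaks of untreated cells. Open points are the 414 that overlapped a Tet peak, black points the 44 untreated-only peaks within 1 kb of a TSS and grey points the other 30. Untreated-only peaks fall in a group of high pileup and low ratio, which holds black and grey points, and in a mostly black group that reaches 27.2.

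Distance to gene starts separated the classes. Summits within 1 kb of a TSS made up 19.5% of shared Tet peaks (15.7 to 23.7), 11.9% of Tet-only peaks (10.9 to 13) and 59.5% of untreated-only peaks (47.4 to 70.7). For comparison, 7.50% of genome bases lay that close to a TSS. Median distances were 7282 bp, 8304 bp and 276 bp. Most sites of both Tet classes were therefore distal. Introns held 53.4% of shared and 59.5% of Tet-only summits, and intergenic stretches held 38.2% and 33.3%. Seen from the gene start, 14.3% (11.5 to 17.5) of Tet peaks within 1 kb of a TSS were already bound, against 8.14% from 1 to 10 kb, 9.15% from 10 to 50 kb and 8.12% farther away.

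The match to the consensus separated the classes in another order, with untreated-only peaks last. At most 3 mismatches within 100 bp of the summit were found for 380 of 401 shared peaks, or 94.8% (92.1 to 96.7), and for 3097 of 3925 Tet-only peaks, or 78.9% (77.6 to 80.2). Only 2 of 74 untreated-only peaks, or 2.70% (0.329 to 9.42), had one. The shared class was read here at its Tet summits. At the untreated summits of the 414 shared untreated peaks, 341 had such a match, or 82.4% (78.3 to 85.9). Windows placed 3000 bp to either side gave 4.11% for shared Tet peaks, 4.99% for Tet-only and 3.38% for untreated-only peaks. A perfect match stood at 91 shared peaks (22.7%), at 157 Tet-only peaks (4%) and at no untreated-only peak, which allows up to 4.86% at the upper end of its interval. The mean number of mismatches was 1.41, 2.65 and 5.42, and it was 1.99 for shared peaks at their untreated summits.

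Read by the element, a closer match went with a higher already bound share. Of Tet peaks with 0 mismatches 36.7% (30.7 to 43) were already bound, and with 1 mismatch 23.1% (19.8 to 26.6). The share was 7.88% at 2 mismatches, 2.81% at 3 and 2.47% at 4 or more. Closer matches also had larger Tet fold enrichments, with medians of 12.7, 11.5, 8.40, 6.79 and 5.73 in that order, so the comparison was repeated among the 432 strongest Tet peaks. There the already bound share was 67 of 76 (88.2%) at 0 mismatches, 96 of 141 (68.1%) at 1 and 71 of 129 (55.0%) at 2. It was 23 of 59 (39.0%) at 3 and 6 of 27 (22.2%) at 4 or more. Within these 432 peaks the shared class still had the larger median fold enrichment, 34.1 against 24.8, and the separate parts of strength and sequence were not tested.

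The composition of the cores differed less. CATG in both cores, the arrangement seen at CDKN1A, GADD45A, MIR34B and MDM4, was present in 48.2% (43 to 53.3) of shared and 38.8% (37.1 to 40.6) of Tet-only matches with at most 3 mismatches. Among the 432 strongest peaks the order turned, with 46.7% (40.5 to 53) and 50% (41.7 to 58.3), and these intervals overlap.

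**Figure D5:**
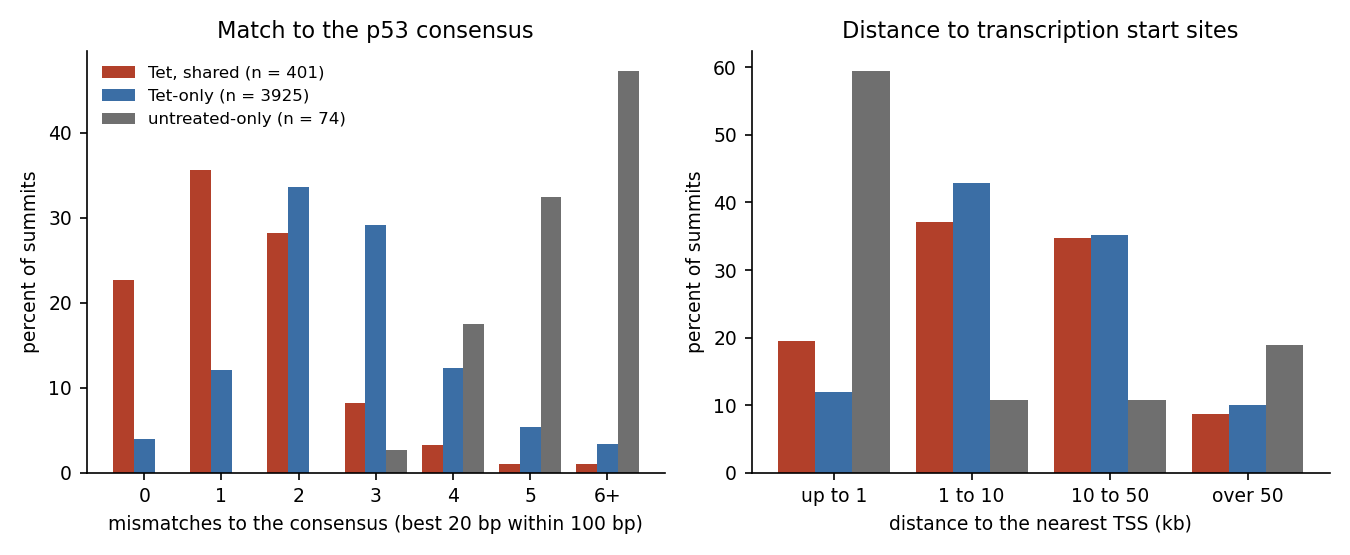
Left, mismatches of the best 20-bp match to the p53 consensus within 100 bp of the summit, as percent of each class. Right, distance of the summit to the nearest TSS in kb, as percent of each class. Shared peaks (n = 401), read at Tet summits, sit mostly at 0 to 2 mismatches. Tet-only peaks (n = 3925) sit most often at 2 and 3, with 21.1% at 4 or more. Of untreated-only peaks (n = 74), 97.3% sit at 4 or more, and most lie within 1 kb of a TSS.

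The peaks of Tet-treated K120R cells gave a readout that the classes did not use. They overlapped 253 of the 401 already bound peaks, or 63.1% (58.2 to 67.8), and 839 of the 3925 Tet-only peaks, or 21.4% (20.1 to 22.7). Only 2 of the 74 untreated-only peaks, or 2.70%, overlapped one. Among the 432 strongest Tet peaks the shares were closer, 74.5% (68.8 to 79.7) of shared and 63.9% (56.2 to 71.1) of Tet-only peaks. These last 2 intervals overlap, and strength in the Tet list moved with the share. The fragment length of the Tet-treated K120R library was 68 bp, near the 64 bp of the untreated WT library that defines the shared class, and its part in these shares was not tested.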

How the data were processed

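ChIP-seq peaks of 4 conditions, 1 library each, were read from the deposited tables. Per the file headers, the authors called peaks with MACS 2.1.1.20160309 against each library's own input, with 1 tag kept per position and a q cutoff of 0.05, on 75-bp reads. The deposited pileup is a signal height in fragments after scaling ChIP and input to the smaller library, deposited fold enrichments are a ratio of pileup to local background, and the authors gave p and q as -log10 values. No value was normalized again. Summits were annotated with GENCODE 44 on GRCh37, using Python 3.11.15 with pysam 0.24.0, pandas 2.3.3, numpy 2.4.6, matplotlib 3.10.9 and scipy 1.17.1. The consensus, with adjacent decamers, is its own reverse complement, so a search of the plus strand covered both strands. Ties went to the match nearest the summit. The steps were tested on simulated data.

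Named genes are listed targets with an untreated peak, up to 4 others per list with the largest Tet fold enrichment, the 6 strongest peaks per class and the 4 pairs with the largest rank shift in each direction. Members and lists were chosen with earlier results of these data known. Of the lists, TP53COR1 was not matched, and RFWD2 was read as COP1. Alternatives were stricter q and fold enrichment limits, other overlap rules, pileup in place of fold enrichment, a Tet list of equal size, protein-coding starts, other search windows and mismatch limits, a wider gene window and, chosen after seeing the data, lists without untreated peaks of high pileup and low ratio and the strongest 432 Tet peaks.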

Additional observations from a re-analysis of the deposited data

How the results depend on the processing

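Of 48 values recomputed for 15 results, 24 stayed within a limit around the reported value and 24 moved outside it, and the cause was not tested. The limit was the exact 95% interval for shares, the 95% order-statistic interval of the shared median for the strength ratio, a 95% Fisher z interval for rho and 1.5-fold for gene counts. The already bound share of Tet peaks fell to 7.62% and 6.19% at -log10 q of at least 5 and 10. The shared part of untreated peaks was 91.2% at a fold enrichment of at least 5, 65.0% against the 488 Tet peaks of largest -log10 q, and 90.7% without untreated peaks of pileup at least 50 and fold enrichment below 5. The ratio of median strengths was 3.22 at a fold enrichment of at least 5 and 4.13 by pileup, and rho was 0.769 by pileup. With protein-coding starts alone, 14% of shared, 7.95% of Tet-only and 36.5% of untreated-only summits lay within 1 kb. The untreated-only share was 83.9% at -log10 q of at least 10 and 78.6% without the high pileup peaks. At most 2 mismatches gave 86.5%, 49.8% and 0%, and a 50-bp window gave 67.2% of Tet-only and 0% of untreated-only peaks. Among the 432 strongest Tet peaks, near-consensus matches were at 97.7% of shared and 87.6% of Tet-only peaks, K120R peaks at 74.5% and 63.9%, and 8.28% of Tet-only summits lay within 1 kb of a TSS. K120R peaks met 11.9% of Tet-only peaks at -log10 q of at least 10. Alternatives that drop high pileup peaks or keep the 432 strongest were chosen after seeing the data. Shared peaks kept the larger TSS, consensus and K120R share than Tet-only peaks wherever both were recomputed. No paired analysis was possible because each condition was 1 library. A missing peak means that none was called at 33059650 to 33531162 tags, with fragment lengths of 64 and 170 bp.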

Other observations

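Some shared peaks stood out from the rest by position. A stretch at chr8:43092748-43097617 held 8 untreated peaks, all shared, and 4 Tet peaks. Their untreated pileups were 80 to 128 and their fold enrichments 2.66 to 7.78. The Tet peaks ranked between 3548 and 4313 of 4326. That of rank 3548 was Tet-only, and the others were shared. The best consensus match had at least 6 mismatches. Of the 12 peaks of untreated K120R cells, 9 lay in the same stretch, and 10 of the 12 overlapped an untreated WT peak. A second stretch on chromosome 8, chr8:86560666-86833035, holds the REXO1L gene copies and had 7 untreated and 16 Tet peaks, 7 of them shared. Of the 12 shared peaks in the weaker 5 groups of the Tet list, 7 were on chromosome 8, and the others included peaks at PEX3, RNU1-1, KMT5B and TYMS.

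The longest Tet peaks were a pair of Tet-only regions on chromosome X, chrX:30806571-30817955 and chrX:30818257-30824799, 11385 and 6543 bp long, with fold enrichments of 35.3 and 19.4. They were the only Tet peaks over 5000 bp, and both overlapped a peak of Tet-treated K120R cells. Untreated cells with WT p53 had 488 peaks and untreated cells with K120R p53 had 12, at 33059650 and 34151544 ChIP tags. The amount of p53 protein in either line was not analysed here, and its part in that difference was not tested.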
